A study of Mus musculus with 13 samples.

Results

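The genes described here are 35 mouse genes of skeletal muscle, 30 of them encoding the contractile machinery and its supply of calcium and energy, and 5 encoding transcription factors of the muscle lineage. They were taken by name, whatever their level, from a table of read counts for 34709 genes measured by RNA-seq in whole lower incisors, and all 35 were found in it. The incisors came from male mice on postnatal day 5, with 3 libraries from VDRgem mutants, 5 from VDR-null mutants and 5 from mice whose genotype is labelled control. The vitamin D receptor of VDRgem mice is known as one that synthetic gemini ligands can switch on and the natural ligand cannot, and VDR-null mice have lost its function. The strain background and the alleles are not described further in the labels, which call the incisors independent without naming the animal behind each library, and p-values thus refer to the variation among these libraries. Libraries are numbered within their group in the order of deposition, and the same number in different groups links nothing.

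A skeletal muscle fibre contracts when myosin heavy chains, with their light chains, pull on filaments of actin. Troponin T, I and C hold the actin filament closed until calcium, released from the sarcoplasmic reticulum, binds troponin C. Most of these proteins exist in embryonic, perinatal, fast and slow versions from separate genes, and in newborn mice the early versions are being exchanged for the adult ones. The basic helix-loop-helix factors Myf5, MyoD, myogenin and Mrf4 drive the lineage and bind E-boxes, with the letters CANNTG, while Pax7 marks the satellite cells that serve as its stem cells. Skeletal muscle is not a tissue of the tooth, although the muscles of the tongue, lip and jaw lie near the lower incisor.

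Promoter sequences are given for the members whose library-to-library pattern is described most closely below, the perinatal and embryonic myosins Myh8 and Myh3, their fast neighbour Myh4 with its unlike pattern, the skeletal actin Acta1 and the myogenic factor Myog. Each is the 250 bases before the start of the gene in RefSeq on GRCm38.p6, read 5′ to 3′ on the gene's strand, with capitals marking each match to CANNTG. The positions are chr11:67276874-67277123 on the plus strand for Myh8, chr11:67078050-67078299 on the plus strand for Myh3, chr11:67237562-67237811 on the plus strand for Myh4, chr8:123894776-123895025 on the minus strand for Acta1 and chr1:134289754-134290003 on the plus strand for Myog. Gene positions given later are from GENCODE, whose starts differ from these for some genes, so the Myog window reaches into the GENCODE gene and the Myh4 and Acta1 windows stop short of it.
Myh8: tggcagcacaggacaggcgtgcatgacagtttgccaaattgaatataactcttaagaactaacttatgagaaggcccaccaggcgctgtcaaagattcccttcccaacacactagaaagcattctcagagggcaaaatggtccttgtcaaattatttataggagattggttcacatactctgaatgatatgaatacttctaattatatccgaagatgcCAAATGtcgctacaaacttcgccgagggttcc
Myh3: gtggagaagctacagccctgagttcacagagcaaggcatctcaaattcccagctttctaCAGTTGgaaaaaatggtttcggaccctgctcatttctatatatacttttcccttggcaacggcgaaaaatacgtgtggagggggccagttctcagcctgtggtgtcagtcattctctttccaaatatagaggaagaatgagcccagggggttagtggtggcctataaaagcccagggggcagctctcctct
Myh4: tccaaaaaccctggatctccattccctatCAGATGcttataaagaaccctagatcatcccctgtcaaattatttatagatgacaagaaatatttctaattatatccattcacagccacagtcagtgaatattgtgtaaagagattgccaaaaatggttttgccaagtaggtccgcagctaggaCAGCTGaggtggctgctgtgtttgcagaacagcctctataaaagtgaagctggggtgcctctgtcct
Acta1: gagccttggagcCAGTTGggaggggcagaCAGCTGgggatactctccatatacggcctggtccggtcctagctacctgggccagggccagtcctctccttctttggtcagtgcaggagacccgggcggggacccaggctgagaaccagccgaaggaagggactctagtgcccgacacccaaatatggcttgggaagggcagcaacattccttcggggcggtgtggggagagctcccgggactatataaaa
Myog: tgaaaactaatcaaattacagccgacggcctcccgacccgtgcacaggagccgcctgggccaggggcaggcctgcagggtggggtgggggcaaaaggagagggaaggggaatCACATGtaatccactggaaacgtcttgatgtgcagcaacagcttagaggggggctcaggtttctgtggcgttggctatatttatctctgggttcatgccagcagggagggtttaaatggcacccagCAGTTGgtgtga
A promoter was found for 28 of the 35 members. CANNTG, which reads the same on both strands, was present in 21 of the 28 (75.0%) and in 66.2% of the 32851 promoters of all genes. CAGCTG, one of the forms of CANNTG and the one in the Acta1 and Myh4 windows, was present in 11 of the 28 (39.3%) and in 13% of all promoters. The MEF2 site was searched on both strands only as YTAWWWWTAR. Here Y is C or T, W is A or T and R is A or G. In this form it was present in Myh1, Myh4, Myh8 and Ttn (14.3%, against 2.92% of all promoters). The Myog window holds ctatatttat, which differs from this form in its last letter and was not counted. The CArG box, searched as CCWWWWWWGG, was present in Myh4, Acta1 and Actc1 (10.7%, against 1.47%). TATAAA was found on either strand in 7 of the 28 (25.0%) and in 12.4% of all promoters. These matches describe the letters of the windows and say nothing of binding.

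Libraries held between 20405188 counts (control 2) and 87783466 counts (VDRgem 3), and no library was a copy of another. Levels are given as CPM, the count of a gene scaled to the size of its library. Vdr itself stood at 107 to 205 CPM in VDRgem, 204 to 281 CPM in VDR-null and 142 to 180 CPM in control, and whole-gene counts cannot tell an altered transcript from an intact one, so this level does not check the labels. Markers of ameloblasts, which make enamel, summed to 26564 to 54194 CPM in VDRgem, 16267 to 75251 CPM in VDR-null and 14658 to 72090 CPM in control. Those of odontoblasts, which make dentin, summed to 132600 to 145852, 57210 to 152216 and 79583 to 127679 CPM in the same groups, so every library held the transcripts of a tooth.

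Transcripts of skeletal muscle were found in every incisor library, and most of them lay in VDRgem 1 and VDR-null 3. The 35 members together made up 389, 91.0 and 63.4 CPM in VDRgem 1, 2 and 3. In VDR-null 1 to 5 they summed to 21.9, 32.6, 937, 52.6 and 107 CPM, and in control 1 to 5 to 27.5, 33.1, 64.6, 34.8 and 43.9 CPM. Set against the control median of 34.8 CPM, VDRgem 1 was 11.2 times as high, VDR-null 3 27.0 times and VDR-null 5 3.08 times, while VDR-null 1 stood at 0.63 of it. The ranges of the 3 groups overlapped, and the lowest as well as the highest of the 13 libraries were VDR-null. In a whole tooth, fewer cells of a type and less RNA per cell cannot be told apart.

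VDRgem 1 and VDR-null 3 were the 2 highest libraries for 29 of the 35 members. Of the 30 members with enough counts to be tested, 26 had this pattern (86.7%), against 3.75% of the 17837 genes tested. In 19 of the 35 the lower of the 2 libraries was also at least 2 times the next one, as it was in 16 of the 30 and in 0.297% of all genes tested. These libraries were singled out after the members' values were seen, so the counts describe them and test nothing. The 6 members with another order were Myh1, Myh4, Myh7, Casq1, Myf5 and Pax7.

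**Figure D1:**
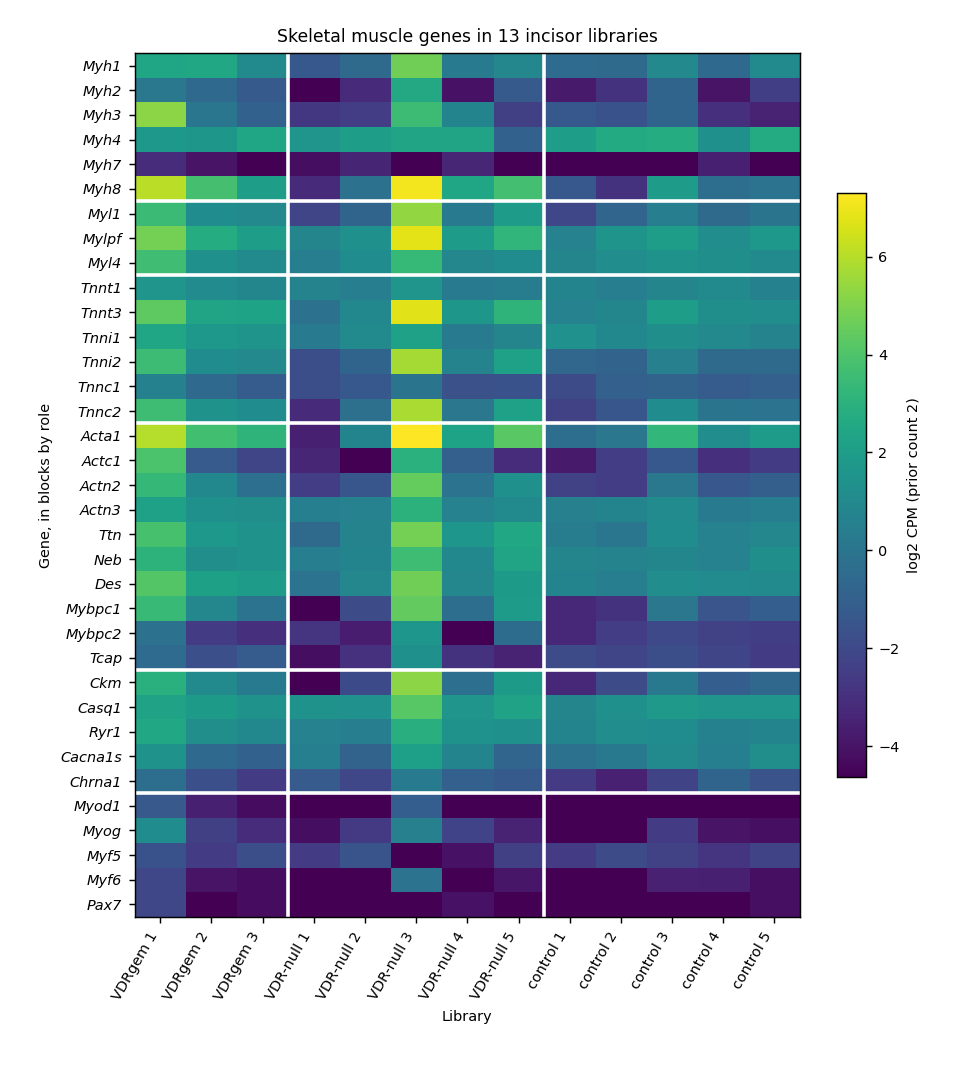
Level of each of the 35 members (rows, grouped by role) in each library (columns, VDRgem, then VDR-null, then control), as log2 CPM with a prior count of 2 on the colour scale. VDRgem 1 and VDR-null 3 are the 2 highest libraries in 29 of the 35 rows.

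Taken as groups, with this spread between libraries, the mutants gave 1 called member against control in edgeR. In VDRgem against control, 1 of the 30 tested members passed an adjusted p of 0.05 in the quasi-likelihood test of edgeR, adjusted over all genes by the Benjamini-Hochberg method. It was the embryonic myosin Myh3, which rose. DESeq2 gave no p for Myh3 and called Myh8, 1 member, and limma-voom called 0. Of all genes 8.62% passed, 4.8% as higher and 3.82% as lower in VDRgem. The fitted log2 fold changes were above 0 for 28 of the 30, with a median of 1.81 (0.00 over all genes tested), and 8 members reached an unadjusted p under 0.05. In VDR-null against control 0 of the 30 passed in edgeR, against 1.33% of all genes (0.678% higher and 0.656% lower), although 26 fold changes were above 0, the median was 2.21 (0.01 over all genes) and 16 members had an unadjusted p under 0.05. Adjusted p in that comparison ran from 0.0956 to 0.998 with edgeR. DESeq2 called 5 of these members, Myh8, Myl1, Tnni2, Actn2 and Ckm, as higher, and limma-voom called 0. Over all genes DESeq2 called 9.23% there, 4.4% as higher, and limma-voom 1.39%. Between the mutants, VDRgem against VDR-null, 0 of 30 passed in edgeR against 18.8% of all genes (10.6% higher and 8.18% lower), with a median of -0.18, 12 fold changes above 0 and 2 members, Tnni1 and Tnnc1, at an unadjusted p under 0.05. DESeq2 also called 0 there, and limma-voom called Tnni1. The direction depended on the method. With limma-voom, VDRgem against VDR-null had 27 of 30 fold changes above 0, a median of 1.13 and 5 members at an unadjusted p under 0.05. VDR-null against control had 18 of 30 above 0, a median of 0.23 and 0 members at an unadjusted p under 0.05 with limma-voom. Both comparisons with control share the same 5 control libraries.

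Each group's fold changes rested largely on 1 library. Without VDRgem 1, the median log2 fold change of VDRgem against control was 0.83 and 25 of 30 were above 0. In edgeR 0 members passed, with 0 at an unadjusted p under 0.05. Calls fell over all genes too, from 8.62% to 0.364%, so the count of 0 is no result about the members. Without VDR-null 3, the median of VDR-null against control was 0.29 and 19 of 30 were above 0. There 0 passed, against 2.76% of all genes, with 1 at an unadjusted p under 0.05. The spread that VDR-null 3 adds entered the VDRgem comparison too, since all groups shared 1 estimate. Without VDR-null 3, 8 of 30 members rose in VDRgem against control (Myh3, Myh8, Mylpf, Tnni2, Actc1, Actn2, Actn3 and Des), where 5.06% of all genes rose. A fit of VDRgem and control alone called 16 of 29 as higher, where 5.8% of all genes were called higher. Without VDR-null 3, VDRgem against VDR-null had 10 of 30 members higher in VDRgem, against 13.1% of all genes, and a median of 1.59. Leaving out VDRgem 1 and VDR-null 3 together was an alternative chosen after seeing the data. The medians were then 0.85 for VDRgem against control, 0.27 for VDR-null against control and 0.49 for VDRgem against VDR-null. In that order the members called were 0, 0 and 2 (Tnni1 and Tcap) of 30, and 0.651%, 5.84% and 5.07% of all genes were called.

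**Figure D2:**
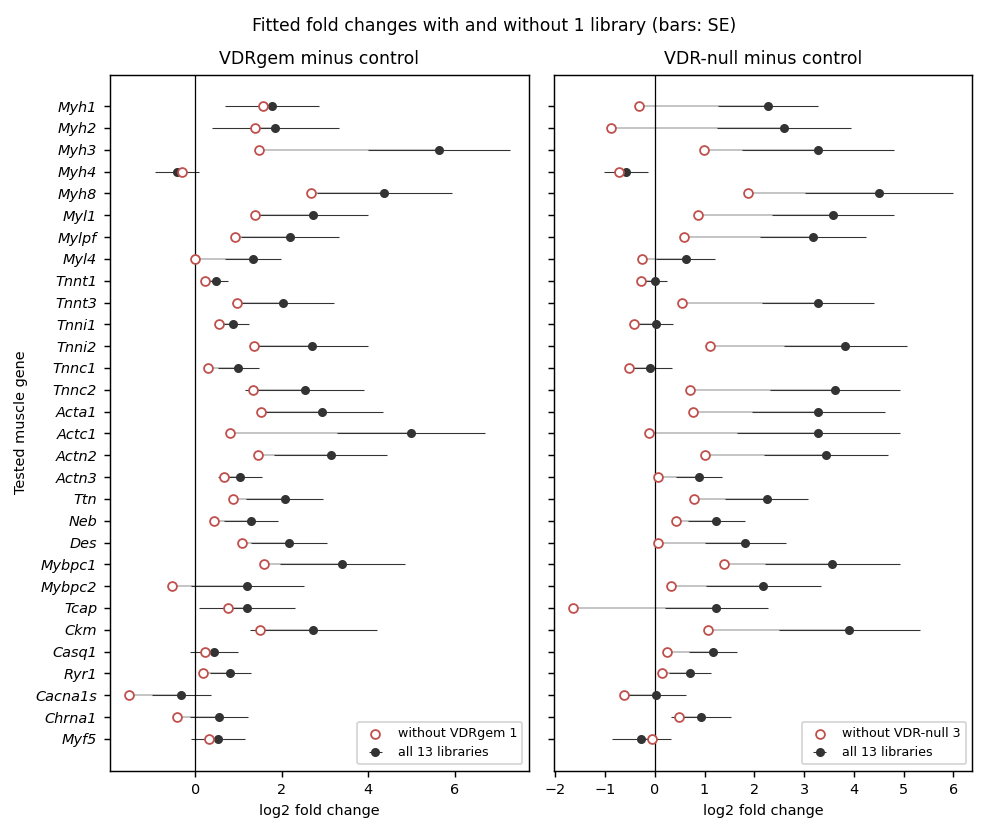
Fitted log2 fold change of each of the 30 tested members, with all 13 libraries (filled points, bars are SE) and with VDRgem 1 (VDRgem against control) or VDR-null 3 (VDR-null against control) left out (open points). The medians were 1.81 and 2.21 with all libraries and 0.83 and 0.29 without those libraries.

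The VDRgem libraries nonetheless lay above all controls for part of the set. For 13 of the 30 tested members every VDRgem library was above every control, against 9.01% of all genes tested. They were Myh1, Myh8, Mylpf, Myl1, Tnnt3, Tnni1, Tnni2, Tnnc2, Actn3, Ttn, Des, Tcap and Ckm. The size of the gap in VDRgem 2 and 3 varied. Myh8 was at 13.7 CPM in VDRgem 2 and 3.98 CPM in VDRgem 3, with 3.92 CPM in the highest control. The slow troponin I gene Tnni1 had 5.27, 3.26 and 2.86 CPM in VDRgem 1, 2 and 3 and at most 2.61 CPM in control, and the intermediate filament gene Des had 17.4, 4.42 and 3.78 CPM in VDRgem and at most 2.27 CPM in control. In VDR-null, 0 of the 30 had every library above every control, against 3.91% of all genes. Every VDRgem library was above every VDR-null library in 0 of the 30, against 9.17% of all genes. VDR-null 3 was the highest of all libraries for 22 of the 30, so this 1 library fixed most of that count.

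Myosin heavy chains, the motors, differed most from gene to gene. The group has 6 members here, of which Myh3, Myh2, Myh1, Myh4 and Myh8 lie in this order on the plus strand of chromosome 11 (mm10) and Myh7, the slow and cardiac form, on chromosome 14. Their products are close in sequence, so the split of reads between them carries some uncertainty. In VDRgem against control 1 of the 5 tested rose and 0 fell, and the median log2 fold change was 1.85. In VDR-null 0 of 5 passed in edgeR, 3 had an unadjusted p under 0.05, DESeq2 called Myh8, limma-voom called 0 and the median was 2.6.

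Myh3 (ENSMUSG00000020908, chr11:67078300-67102291), the embryonic heavy chain, had 37.6, 1.01 and 0.476 CPM in VDRgem 1, 2 and 3. It had 0.115, 0.143, 11.6, 1.67 and 0.153 CPM in VDR-null 1 to 5, and 0.355, 0.284, 0.544, 0.0843 and 0.0482 CPM in control 1 to 5. VDRgem 1 stood far above all others and VDR-null 3 next, whereas VDRgem 3 was inside the control range. The log2 fold change of VDRgem over control was 5.63 (SE 1.64, adjusted p = 0.0485 with edgeR, n = 3 and 5), and VDR-null over control gave 3.28 (SE 1.53, adjusted p = 0.219). Without VDRgem 1 the VDRgem value was 1.46 (SE 1.49, adjusted p = 0.698). Over 22 alternatives the edgeR or limma adjusted p ran from 0.0234 to 0.91 and passed in 11. Leaving out any 1 of the 5 controls, or VDR-null 4, also ended the call, at adjusted p of 0.0936, 0.0945, 0.0792, 0.108 and 0.109 for control 1 to 5 and 0.0603 for VDR-null 4.

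Myh8 (ENSMUSG00000055775, chr11:67277124-67308634), the perinatal heavy chain, had the highest mean CPM of the 6 over all 13 libraries, although Myh4 was higher in control. It had 67.2, 13.7 and 3.98 CPM in VDRgem 1, 2 and 3, and 0.0716, 0.878, 137, 5.42 and 13.5 CPM in VDR-null 1 to 5, against 0.355, 0.0947, 3.92, 0.759 and 0.900 CPM in control 1 to 5. Every VDRgem library was above every control, if narrowly for VDRgem 3, and VDR-null spanned the range of the whole series. The means were 28.3 ± 34.0 CPM in VDRgem, 31.4 ± 59.4 CPM in VDR-null and 1.21 ± 1.55 CPM in control (SD, n = 3, 5 and 5), with every SD above its mean. Log2 fold changes over control were 4.37 for VDRgem (SE 1.56, adjusted p = 0.100) and 4.51 for VDR-null (SE 1.49, adjusted p = 0.101), both short of the threshold in edgeR, while DESeq2 called Myh8 as higher in each mutant and limma-voom in neither.

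The fast heavy chains did not move as one. Myh1 (chr11:67200052-67224575), of fast IIx fibres, had 5.18, 5.48 and 2.00 CPM in VDRgem 1 to 3. In VDR-null 1 to 5 it had 0.358, 0.663, 26.6, 1.13 and 1.83 CPM, and in control 1 to 5 0.678, 0.663, 1.97, 0.632 and 1.98 CPM. VDRgem 2 exceeded VDRgem 1 here. Myh2 (chr11:67171027-67197517), of fast IIa fibres, had 1.07, 0.638 and 0.378 CPM in VDRgem, and 0.000, 0.0717, 5.86, 0.0194 and 0.382 CPM in VDR-null. It had 0.0323, 0.0947, 0.544, 0.0211 and 0.145 CPM in control, so only VDRgem 1 and 2 and VDR-null 3 passed the highest control. Their log2 fold changes over control were 1.77 and 1.85 in VDRgem and 2.28 and 2.6 in VDR-null, with adjusted p of 0.197 to 0.480 in edgeR, and without VDR-null 3 the VDR-null values were -0.32 and -0.88.

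Myh4 (ENSMUSG00000057003, chr11:67238029-67260446), the fast IIb heavy chain, lacked the pattern of its neighbours. It had 3.24, 3.21 and 5.2 CPM in VDRgem 1 to 3, 2.99, 4.19, 4.97, 4.99 and 0.483 CPM in VDR-null 1 to 5 and 3.97, 6.25, 6.85, 2.57 and 6.41 CPM in control 1 to 5. The 2 libraries richest in the other members were within the control range, and VDR-null 5, which came next after them in summed muscle transcripts, was the lowest of all. Log2 fold changes were -0.42 for VDRgem (SE 0.51, adjusted p = 0.668) and -0.57 for VDR-null (SE 0.44, adjusted p = 0.467). Myh7 had 4, 1 and 0 counts in VDRgem, 1, 3, 0, 3 and 0 in VDR-null and 0, 0, 0, 2 and 0 in control, too few to test.

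The myosin make-up of the 2 muscle-rich libraries was not the same. Of the counts of Myh3 and Myh8 together, Myh3 took 35.9% in VDRgem 1 (95% Wilson interval 34.6 to 37.2) and 7.77% in VDR-null 3 (6.95 to 8.68), intervals that cover counting error only. VDR-null 5 held 1.12% Myh3 (0.514 to 2.42) and VDR-null 4 23.6% (19.5 to 28.2). Divided by exon length and taken as shares of all 6 heavy chains, Myh3 and Myh8 made up 46.2% and 42.5% in VDRgem 1. In VDR-null 3, Myh8 made up 60.1%, Myh1 21.6% and Myh3 9.83%. Myh4 led in every control, at 58.5% to 85.8%, and also in VDRgem 3 (52.4%) and in VDR-null 1, 2 and 4 (85.7%, 76.1% and 47.3%), and was 4.01% in VDRgem 1 and 4.26% in VDR-null 3. The exon length of Myh8, 11772 bases merged over all its transcripts, is longer than the 6057 of Myh3, which lowers its share on this scale. Counts without this division reversed the order in VDRgem 1, with Myh8 at 58.7% and Myh3 at 32.9%. They also put Myh8 above Myh4 in VDR-null 4, at 40.8% against 37.6%.

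**Figure D3:**
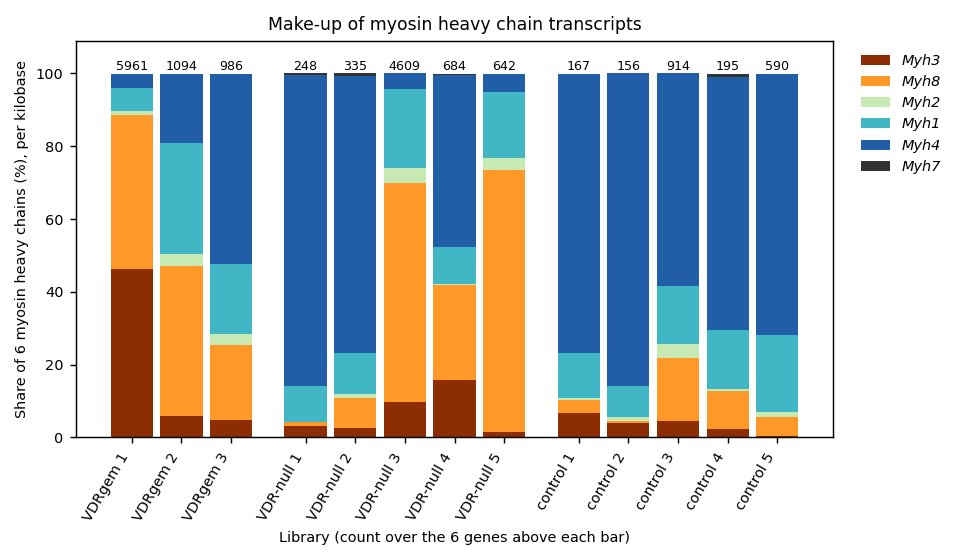
Share of each of the 6 myosin heavy chains, in percent of their summed CPM per kilobase of exon, in each library (VDRgem, VDR-null, then control), with the count over the 6 genes above each bar. Myh4 is the largest share in every control, in VDRgem 3 and in VDR-null 1, 2 and 4, while VDRgem 1 is made up mostly of Myh3 and Myh8 and VDR-null 3 of Myh8.

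The 3 myosin light chains were highest in VDRgem 1 and VDR-null 3, each at least 2 times the next library. Mylpf (ENSMUSG00000030672, chr7:127208890-127214298), the fast regulatory light chain, had 27.7, 6.71 and 4.17 CPM in VDRgem 1 to 3, 1.72, 2.54, 114, 3.75 and 9.19 CPM in VDR-null 1 to 5 and 1.52, 2.84, 4.04, 2.32 and 3.28 CPM in control 1 to 5. VDRgem 3 was just above the highest control. Its log2 fold changes over control were 2.18 in VDRgem (SE 1.13, adjusted p = 0.265) and 3.18 in VDR-null (SE 1.07, adjusted p = 0.106). Myl1, the fast essential light chain, ran with it at 11.3 CPM in VDRgem 1 and 41.9 CPM in VDR-null 3, against 0.194 to 1.33 CPM in control. Myl4, the embryonic and atrial light chain, reversed that order, with 12.5 CPM in VDRgem 1 and 10.3 CPM in VDR-null 3, against 1.71 to 2.81 CPM in control. Myl4 took 52.6% of the counts of Myl4 and Myl1 in VDRgem 1 (49.8 to 55.4) and 19.7% in VDR-null 3 (17.6 to 22.0).

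All 6 troponins had VDRgem 1 and VDR-null 3 as their highest libraries, but fast and slow forms did so to different degrees. Tnnt3 (ENSMUSG00000061723, chr7:142498836-142516009), the fast troponin T, had 20.4, 5.02 and 4.82 CPM in VDRgem 1 to 3, 0.859, 1.88, 108, 3.18 and 8.58 CPM in VDR-null 1 to 5 and 1.52, 1.75, 4.08, 2.47 and 2.28 CPM in control 1 to 5. All VDRgem libraries were above all controls. The log2 fold changes were 2.02 in VDRgem (SE 1.18, adjusted p = 0.328) and 3.28 in VDR-null (SE 1.12, adjusted p = 0.110). Fast Tnni2 and Tnnc2, for troponin I and C, reached 11.5 and 11.9 CPM in VDRgem 1 and 51.1 and 54.9 CPM in VDR-null 3, against at most 1.44 and 2.19 CPM in control. Tnnc2 shares 592 exon bases with Ube2c on the other strand, a gene of mitosis at 9.95 to 13.8 CPM in VDRgem, 10.1 to 30.8 CPM in VDR-null and 19.6 to 29.5 CPM in control, and the strand setting of the counting is not given in the sources used here.

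Slow troponins changed far less between libraries. Tnnt1 had 3.01 CPM in VDRgem 1 and 2.95 CPM in VDR-null 3, against 1.33 to 2.04 CPM in control, and Tnni1 had 5.27 and 4.52 CPM, against 1.58 to 2.61 CPM in control. Tnnc1, shared by slow and cardiac muscle, had 1.48 CPM in VDRgem 1 and 0.929 CPM in VDR-null 3, against 0.226 to 0.514 CPM in control. The slow share of the troponin I counts was 31.4% in VDRgem 1 (28.4 to 34.5), 8.14% in VDR-null 3 (6.81 to 9.70) and 62.6% to 81.8% in control. The slow share of troponin T was 12.9% in VDRgem 1 and 2.66% in VDR-null 3, and that of troponin C 11% and 1.67%. Across the fast genes listed here, 10 of 11 were highest in VDR-null 3, the exception being Myh4. Of the 5 slow genes 4 were highest in VDRgem 1, narrowly for Tnnt1 (3.01 against 2.95 CPM) and for Myh7 (4 counts against 3 in VDR-null 4). Among all genes tested, VDR-null 3 was highest for 10.4% and VDRgem 1 for 20.6%. In VDRgem against VDR-null, Tnni1 had a log2 fold change of 0.85 and Tnnc1 of 1.08, with edgeR adjusted p of 0.125 and 0.120.

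**Figure D4:**
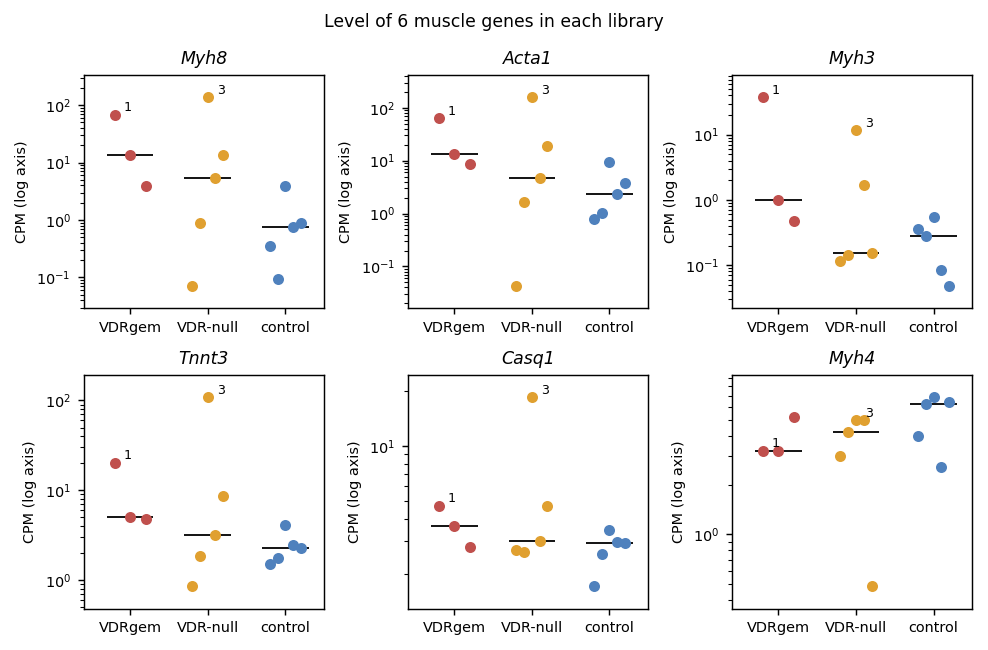
CPM of 6 members in each library (1 point per library, log axis), with VDRgem left, VDR-null in the middle and control at the right. Lines are group medians and numbers mark VDRgem 1 and VDR-null 3. Acta1 reaches 63.0 CPM in VDRgem 1 and 159 CPM in VDR-null 3, against at most 9.65 CPM in control.

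Actin and the scaffold of the sarcomere, 10 members, all had VDRgem 1 and VDR-null 3 at the top and fold changes over control above 0 in both mutants. None passed in edgeR, with 5 in VDRgem and 6 in VDR-null at an unadjusted p under 0.05, 1 call by DESeq2 (Actn2 in VDR-null), 0 by limma-voom and medians of 2.11 and 2.21. Acta1 (ENSMUSG00000031972, chr8:123891769-123894751 on the minus strand), the actin of adult skeletal muscle, had 63.0, 13.1 and 8.63 CPM in VDRgem 1 to 3, 0.0430, 1.67, 159, 4.81 and 18.9 CPM in VDR-null 1 to 5 and 0.774, 1.04, 9.65, 2.30 and 3.79 CPM in control 1 to 5. VDRgem 3 fell inside the control range, and VDR-null 1 was below all controls. Its log2 fold changes were 2.92 in VDRgem (SE 1.41, adjusted p = 0.227) and 3.29 in VDR-null (SE 1.34, adjusted p = 0.167).

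Actc1, the actin of heart and of early skeletal muscle, was far more restricted. It had 15.0, 0.396 and 0.183 CPM in VDRgem 1 to 3 and 0.0573, 0.000, 8.00, 0.466 and 0.0763 CPM in VDR-null 1 to 5, against 0.0323 to 0.348 CPM in control. It took 19.2% of the counts of both actins in VDRgem 1 (18.1 to 20.5) and 4.79% in VDR-null 3 (4.18 to 5.48), although the coding sequences of the pair are close. Against the control mean, Actc1 was 102 times as high in VDRgem 1 and 54.4 times in VDR-null 3, as Myh3 was 143 and 43.9 times, while Myh8 was 55.7 and 114 times. Ckm was 15.5 and 74.7 times and Tnni2 15.0 and 66.3 times as high. The embryonic Actc1 and Myh3 thus had the larger excess in VDRgem 1, and Myh8, Ckm and Tnni2 in VDR-null 3, in 1 library each.

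The other scaffold members spanned a wide range of contrast. Mybpc1, the slow myosin-binding protein C, had 11.1 CPM in VDRgem 1 and 22.0 CPM in VDR-null 3, against 0.0645 to 1.03 CPM in control. Actn2, the alpha-actinin of the Z-disc, had 9.88 and 22.6 CPM in those libraries, against 0.142 to 1.07 CPM in control, and Ttn, the giant spring protein titin, 14.1 and 27.6 CPM against 0.994 to 2.18 CPM. Des, the desmin filament of all muscle, had 17.4 and 26.5 CPM, against 1.33 to 2.27 CPM in control. Neb, the actin ruler nebulin, and Actn3, the fast alpha-actinin, were nearer to control, at 8.44 and 12.1 CPM for Neb against 1.54 to 2.48 CPM and at 4.57 and 8.24 CPM for Actn3 against 1.14 to 2.12 CPM. Mybpc2 and Tcap, a cap of titin, stayed at or under 3.03 CPM in all libraries. Against the control mean, Mybpc2 was 5.9 times as high in VDRgem 1 and 20.7 times in VDR-null 3. Tcap was 3.49 and 12.6 times as high there.

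Of the 5 genes of excitation and energy supply, 0 passed in either mutant against control in edgeR, with 0 in VDRgem and 2 in VDR-null at an unadjusted p under 0.05. DESeq2 called Ckm in VDR-null, and limma-voom called 0. Casq1 (ENSMUSG00000007122, chr1:172209894-172219868 on the minus strand), which stores calcium in the sarcoplasmic reticulum, had 4.70, 3.63 and 2.81 CPM in VDRgem 1 to 3, 2.69, 2.62, 18.4, 3.01 and 4.71 CPM in VDR-null 1 to 5 and 1.71, 2.56, 3.45, 2.99 and 2.93 CPM in control 1 to 5. VDR-null 3 alone stood far above the rest. The log2 fold changes were 0.43 in VDRgem (SE 0.56, adjusted p = 0.689) and 1.17 in VDR-null (SE 0.49, adjusted p = 0.181). Ckm, the muscle creatine kinase, had a steeper contrast, with 7.69 CPM in VDRgem 1 and 37.0 CPM in VDR-null 3, against 0.0645 to 1.10 CPM in control. The calcium release channel Ryr1 had 5.47 and 7.19 CPM in those libraries, against 1.48 to 2.32 CPM in control. Cacna1s, the voltage sensor that opens it, had 2.70 CPM in VDRgem 1 but 0.638 and 0.476 CPM in VDRgem 2 and 3, both below the control range of 0.839 to 2.39 CPM. Chrna1, a subunit of the acetylcholine receptor, stayed at or under 1.13 CPM in all libraries.

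Transcripts of the myogenic factors were scarce everywhere, and 4 of the 5 were too low to test. Myog (ENSMUSG00000026459, chr1:134289989-134292548), which drives the fusing myocyte, had 117, 7 and 6 counts in VDRgem 1 to 3, 1, 7, 36, 9 and 2 counts in VDR-null 1 to 5 and 0, 0, 9, 1 and 1 counts in control 1 to 5. That came to 2.24 CPM in VDRgem 1 and 1.45 CPM in VDR-null 3, with 0.136 CPM in the highest control. Myod1 had 19, 2 and 1 counts in VDRgem, 11 counts in VDR-null 3 and 0 in the other VDR-null libraries, and 0 in all 5 controls. With a floor of 3 counts over the whole control group, or 0.0135 CPM, it was at least 26.9-fold higher in VDRgem 1 and at least 32.8-fold higher in VDR-null 3. Myf6, which encodes Mrf4 of mature fibres, had 10, 1 and 1 counts in VDRgem, 0, 0, 22, 0 and 1 in VDR-null and 0, 0, 3, 2 and 1 in control. Its level was 0.192 CPM in VDRgem 1 and 0.889 CPM in VDR-null 3, the reverse of the order for Myog.

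Pax7 and Myf5, the markers of stem and progenitor cells, did not have VDRgem 1 and VDR-null 3 as their 2 highest libraries. Pax7 had 10, 0 and 1 counts in VDRgem 1 to 3, 0, 0, 0, 1 and 0 in VDR-null 1 to 5 and 0, 0, 0, 0 and 1 in control 1 to 5. It was thus seen in VDRgem 1 and not in VDR-null 3, where a count of 0 allows up to 0.115 CPM. Myf5, the earliest of the factors, had 15, 6 and 21 counts in VDRgem, 9, 17, 0, 1 and 6 in VDR-null and 4, 5, 11, 5 and 11 in control. It was at 0 in the library richest in fibre transcripts, and its log2 fold changes were 0.52 in VDRgem (SE 0.62, adjusted p = 0.662) and -0.27 in VDR-null (SE 0.59, adjusted p = 0.822).

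A low level of some members remained where the others were nearly absent. VDR-null 1 held the least muscle RNA, with Ckm, Mybpc1 and Myh2 at 0 counts and Acta1 at 0.0430 CPM. Per kilobase of exon, its highest members were Mylpf at 1.62, Casq1 at 1.38, Tnnt1 at 0.721, Tnnt3 at 0.543, Myh4 at 0.498 and Actn3 at 0.479 CPM. The control means per kilobase were led by Mylpf at 2.64, Acta1 at 2.29, Tnnt3 at 1.53 and Casq1 at 1.40 CPM. In VDRgem 1 the order per kilobase began with Acta1 at 41, Mylpf at 26.1 and Tnnc2 at 14.9 CPM, and in VDR-null 3 with Mylpf at 107, Acta1 at 104 and Tnnc2 at 68.6 CPM. Casq1, Tnnt1, Myh4 and Actn3 thus had levels in VDR-null 1 within the range of the controls, while Acta1 and Ckm were below every control there.

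A wider list of 83 other muscle genes, of which 70 were tested, often had the same libraries at the top. VDRgem 1 and VDR-null 3 were the 2 highest libraries for 42 of the 70 (60.0%, with the same 3.75% over all genes). By group these were 21 of 26 sarcomere genes, 10 of 19 genes of calcium handling and the membrane, 8 of 11 genes of energy supply and 3 of 14 genes of fusion and regulation (21.4%), and the difference between these groups was not tested. Atp2a1, the calcium pump of fast fibres, had 12.1, 3.63 and 1.94 CPM in VDRgem 1 to 3, 0.172, 0.699, 36.9, 0.951 and 5.01 CPM in VDR-null 1 to 5 and 0.237 to 1.60 CPM in control. In VDRgem against control 0 of 26 sarcomere genes, 1 of 19, 1 of 11 and 2 of 14 of the other groups rose in edgeR and 0 fell, where 4.8% of all genes were called higher. The sarcomere count of 0 stood beside 10 genes at an unadjusted p under 0.05. DESeq2 called 3 of the 26 as higher and limma-voom 0, against 6.95% and 2.54% of all genes. In VDR-null against control 0 of the 70 passed in edgeR, against 1.33% of all genes, with 20 at an unadjusted p under 0.05. DESeq2 called 5 and limma-voom 0, against 9.23% and 1.39% of all genes.

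The share that rose, 4 of the 70, lay near the 4.8% of all genes called higher in VDRgem and is no result about muscle genes as a set. Pax3, a factor of muscle progenitors and also of the neural crest, had 6.46, 3.98 and 2.99 CPM in VDRgem, 0.718 to 1.83 CPM in VDR-null and 0.839 to 1.56 CPM in control, with a log2 fold change over control of 1.71 (SE 0.31, adjusted p = 0.00982 with edgeR). Itga7, a laminin receptor of muscle and other cells, had 14.8, 12.4 and 13.4 CPM in VDRgem, 4.96 to 10.9 CPM in VDR-null and 7.09 to 8.66 CPM in control (log2 fold change 0.78, SE 0.19, adjusted p = 0.0230). Jph2, which ties the cell membrane to the calcium store, had 8.44, 7.59 and 6.07 CPM in VDRgem, 2.76 to 4.73 CPM in VDR-null and 3.90 to 4.78 CPM in control (0.80, SE 0.18, adjusted p = 0.0212). For these 3 genes all VDRgem libraries were above all others. Since Pax3, Itga7 and Jph2 were named for a small p in these same libraries, that order is no separate result. Every VDRgem library was above every control in 9.01% of all genes tested. Fbp2, the muscle fructose bisphosphatase, was highest in VDRgem 1 and VDR-null 3 as most members were, with 10.3, 1.80 and 0.281 CPM in VDRgem, 1.98 CPM in VDR-null 3, 0.0388 to 0.280 CPM in the other VDR-null libraries and 0.000 to 0.464 CPM in control (4.61, SE 1.24, adjusted p = 0.0351). Pax3, Itga7 and Jph2, with Myom3 and Cdkn1c, were also higher in VDRgem than in VDR-null in edgeR with all libraries. Without VDRgem 1, which leaves only VDRgem 2 and 3, 0.215% of all genes were called higher, against 4.8% with all libraries. All 4 calls against control ended in that fit. The log2 fold changes there were 1.34 for Pax3, 0.71 for Itga7, 0.68 for Jph2 and 2.6 for Fbp2. Their adjusted p in edgeR was 0.069, 0.126, 0.128 and 0.324. Without control 5 the adjusted p was 0.0295 for Pax3, 0.0573 for Itga7, 0.0527 for Jph2 and 0.0857 for Fbp2. The Jph2 call also ended without VDRgem 2 (0.0549), and the Fbp2 call without control 1, 2 or 3 (0.0766, 0.0733 and 0.0762), with limma-voom (0.175) and with robust dispersion (0.0584).

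Keratinocyte genes were highest in VDRgem 1 and not raised in VDR-null 3. The 14 keratinocyte genes listed summed to 17704, 4142 and 412 CPM in VDRgem 1, 2 and 3, 80.4 to 197 CPM in VDR-null, with 125 CPM in VDR-null 3, and 88.7 to 623 CPM in control, and 12 of the 13 tested rose in VDRgem against control. The 9 immediate early and heat shock genes summed to 500, 416 and 177 CPM in VDRgem, 79.2 to 172 CPM in VDR-null, with the highest in VDR-null 3, and 103 to 165 CPM in control, and 6 rose in VDRgem. Among 6 tendon genes Thbs4, Tnmd and Scx rose in VDRgem, while the list's sum was 713, 1276 and 1189 CPM in VDRgem 1, 2 and 3, lowest of all libraries in VDRgem 1, 997 to 1394 CPM in VDR-null and 937 to 1081 CPM in control. Smooth muscle genes summed to 498, 429 and 506 CPM in VDRgem 1, 2 and 3, 345 to 505 CPM in VDR-null and 378 to 423 CPM in control, and 1 of 7, the smooth muscle myosin Myh11, rose in VDRgem. Without VDRgem 1, 3 keratinocyte genes rose in VDRgem against control and 0 of the immediate early, tendon and smooth muscle genes. Of all genes 0.215% rose in that fit, against 4.8% with all libraries. The part of these cell types in the members' levels was not tested.

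Heart markers were low. The 7 listed summed to 1.88 to 5.47 CPM in VDRgem, 1.38 to 3.07 CPM in VDR-null and 2.36 to 2.87 CPM in control. Nppa, the atrial peptide, was at 0 in 12 of the 13 libraries and Pln, the phospholamban of heart and slow muscle, in 11. Tnni3, the cardiac troponin I, was present in every library, at 1.42 to 2.09 CPM in VDRgem, 1.08 to 1.70 CPM in VDR-null and 1.72 to 2.15 CPM in control. Tnnt2, which early skeletal muscle also makes, had 3.16 CPM in VDRgem 1 and 1.66 CPM in VDR-null 3, against 0.257 to 0.423 CPM in control. Both lists of fat genes, at low sums, had VDRgem 1 and VDR-null 3 as their highest libraries. Adipocyte genes summed to 18.0 CPM in VDRgem 1, 5.72 and 5.85 CPM in VDRgem 2 and 3, 7.15 CPM in VDR-null 3, 2.39 to 4.58 CPM in the other VDR-null libraries and 3.10 to 4.15 CPM in control. Nearly all of this was Fabp4, the 1 gene of the list that was tested, which rose in VDRgem. Brown fat genes summed to 1.5 CPM in VDRgem 1, of which 1.13 CPM was Cidea, and to 2.46 CPM in VDR-null 3, of which 2.30 CPM was Cox8b, a gene that muscle also uses. All other libraries were at or under 0.647 CPM. The part of fat cells in the members' levels was not tested. Haemoglobin and erythroid genes summed to 198 to 381 CPM in VDRgem, 73.3 to 337 CPM in VDR-null and 212 to 304 CPM in control, and salivary genes to at most 1.21, 0.916 and 1.39 CPM in the same groups.

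**Figure D5:**
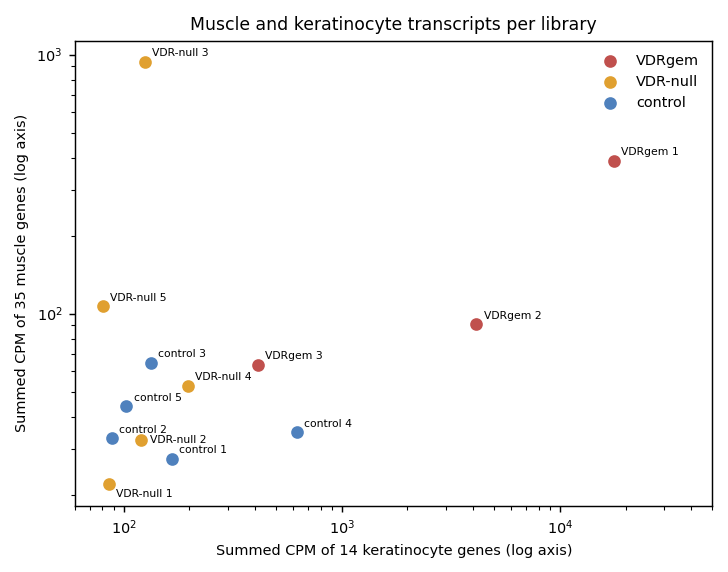
Summed CPM of the 35 members (vertical, log scale) against summed CPM of the 14 keratinocyte genes (horizontal, log scale), 1 point per library, coloured by group. VDRgem 1 is high on both axes (389 and 17704 CPM), while VDR-null 3 is highest for muscle (937 CPM) with keratinocyte genes at 125 CPM.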

How the data were processed

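Poly-A RNA of 13 lower incisor libraries was sequenced after stranded library preparation, per the labels' protocols. The authors deposited counts per gene, which are whole numbers without scaling for 34709 Ensembl genes, of which 1143 had no count. Per the submitters' processing notes, bcl2fastq 2.20.0.422, STAR 2.5.3a, HTSeq 0.6.1p1 and mm10 were used, and for the counting mode and strand setting: not given in the sources used here. GENCODE M21, on GRCm38 (that is, mm10), gave symbols, positions and exon lengths, with 34618 genes matched, and promoters from RefSeq on GRCm38.p6.

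All 13 libraries entered 1 fit in edgeR 4.0.16 (R 4.3.3), with a mean per group, TMM scaling and filterByExpr at a minimum count of 10, which kept 17837 genes and 30 of the 35 members. Genes were called at a Benjamini-Hochberg adjusted p under 0.05 over all genes tested in the quasi-likelihood test, which was tested on simulated data. Levels are CPM after TMM scaling, and log2 CPM used a prior count of 2. Per-kilobase values divide CPM by merged exon length. Shares of counts have 95% Wilson intervals, and a count of 0 allows 3 counts. Libraries were compared for copies by chi-square, with a smallest value per degree of freedom of 15.2. Alternatives were DESeq2 1.42.0, limma-voom (limma 3.58.1), other scaling and filters, robust dispersion, only the groups compared, and leaving out libraries.

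The members and lists were chosen with earlier results of these data known. Values in every library are given by rule for the member with the highest mean in each of 6 roles, for members called, for the 6 heavy chains and for the 5 myogenic factors. From the other muscle lists up to 3 genes each with the smallest p in VDRgem against control were eligible. Further members were named after their values were seen.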

Additional observations from a re-analysis of the deposited data

Results flagged for a closer look

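Log2 CPM of each member was checked in VDR-null and in control, 5 libraries each, for a library whose gap to its nearest neighbour exceeded 0.71 of the group's range. Of 69 such checks 13 found one. Members share the same libraries, so the checks are not independent. Where all other libraries of a group were at 0 counts, any count was flagged, as for Myh7 in control, Myod1 in VDR-null and Pax7 in both. The number found thus cannot be set against a chance rate. VDR-null 3 was the high library in 6, at 3.37 for Myl4, -0.05 for Tnnc1, 3.05 for Actn3, 1.35 for Tcap, -1.05 for Myod1 and -0.11 for Myf6. VDR-null 5 was low for Myh4 at -0.93, and VDR-null 4 was high for Pax7 at -4.07, from 1 count. In control the high libraries were control 3 for Tnni2 at 0.56 and for Myog at -2.50, control 4 for Myh7 at -3.60, from 2 counts, and control 5 for Neb at 1.33 and for Pax7 at -4.15, from 1 count. Log2 CPM is taken with a prior count, so values from 1 or 2 counts are set largely by that prior. No cause was tested for any of these values.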

How the results depend on the processing

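Of 445 alternative values of 20 fold changes over 23 settings, 418 kept direction and side of the threshold, 9 newly passed, 11 no longer passed and 7 changed sign. Sign changes were in VDR-null against control: Myh1 at -0.32 without VDR-null 3 and -0.35 without VDRgem 1 and VDR-null 3 together, Myh2 at -0.88 and -0.89 there and -0.49 with limma-voom, Acta1 at -0.24 with limma-voom, and Myf5 at 0.01 without VDR-null 4. With 1 library left out these ran from -0.32 to 2.59 for Myh1, -0.88 to 3.87 for Myh2 and -0.93 to 0.01 for Myf5. Leaving out 1 library at a time gave, in VDRgem against control, 66 to 2021 genes called, 0 to 8 members and medians of 0.83 to 2.26. In VDR-null against control the ranges were 6 to 685 genes, 0 members and 0.29 to 2.53, and in VDRgem against VDR-null 434 to 4610 genes, 0 to 10 members and -1.35 to 1.59. For VDRgem against control, DESeq2 called 2320 genes, limma-voom 981, the fit without VDRgem 1 and 2, where the lone library is assumed to vary like the other groups, 5, and that without VDRgem 1 and VDR-null 3 together 118. Members called there were 0 with limma-voom, with robust dispersion and without VDRgem 1 and VDR-null 3 together. With only the 2 groups 16 were called, where 5.8% of all genes were called higher. For VDR-null against control, 1647 genes were called by DESeq2, 423 at a mean CPM of at least 1, 703 with only the 2 groups, 676 without VDRgem 1 and 2 and 1058 without VDRgem 1 and VDR-null 3 together. DESeq2 called 5 members, and the median was 0.23 with limma-voom and 0.27 without VDRgem 1 and VDR-null 3 together. For VDRgem against VDR-null, 753 genes were called with only the 2 groups, 32 without VDRgem 1 and 2 and 918 without VDRgem 1 and VDR-null 3 together, with 2 members in the last and 1 with limma-voom. The medians were 1.13 with limma-voom and -1.81 without VDRgem 1 and 2. Scaling by library totals alone moved the median of all genes by -0.168 in VDRgem against control, with 589 genes higher and 1576 lower, and by -0.188 in VDRgem against VDR-null. The causes were not tested. No paired analysis was possible because the labels give no replicate numbers that link libraries of different groups. At these depths, a count of 0 allows 0.0342 to 0.147 CPM per library, which limits Myod1, Myog, Myf6, Pax7 and Myh7.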
